A study of Mus musculus with 79 samples.

Results

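The genes flanking the Hoxb cluster on mouse chromosome 11 were followed through retinoic acid (RA) treatment of embryonic stem cells, through loss of the cohesin subunit SCC1, and in clones that lack an enhancer inside the cluster. They were chosen by position: genes of the wildtype time course whose transcript starts at most 994 kb before or 1132 kb after the span of the Hoxb genes (mm10), leaving out the Hoxb genes themselves, with the transcript of highest mean signal standing for each gene. The rule gave 56 of 19446 genes. Of these, 24 lay on the Hoxb13 side, 28 on the Hoxb1 side and 4 inside that span, chr11:96194361-96368253.

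RNA came from 3 sets of mouse embryonic stem cells grown in serum and LIF, the cytokine that keeps them undifferentiated. The first was wildtype E14, a widely used line: total RNA before 1 µM RA and after 2, 4, 6, 24, 48 and 72 h of it, in 2 libraries at 0 h, 3 at 24 h and 4 at each other time (the last time is 72 h in the sample titles and 74 h in another label). The second was an E14 line with Rosa26::Tir1 and Scc1-mAID-eGFP, in which auxin (500 µM) directs the tagged SCC1 to the proteasome. Its 4 groups of 3 nuclear RNA libraries were untreated, RA for 4 h, auxin for 6 h, and auxin for 2 h before and throughout 4 h of RA. All 4 groups carried the tag and Tir1. The third set was nuclear RNA from 3 clones: G4 (E14;HoxTransEwt), which keeps the transient enhancer of the Hoxb locus, and E3 and H12 (E14;HoxTransEdel), which lack it. Each clone had 2 libraries before RA and after 2, 4, 6, 24, 48 and 74 h of it. The wildtype arm was 1 clone, so clone and genotype cannot be told apart, and the position of the deleted enhancer is not given in the sources used here. Where the labels do not say that replicates were separate cultures, p-values measure only the spread between these libraries.

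RA acts by binding nuclear receptors (RAR with RXR) that sit on DNA at direct repeats of a short hexamer. In embryonic stem cells it switches on the Hox clusters, which encode homeodomain factors that give cells their position along the body axis. The genes around a Hox cluster are mostly unrelated to it in function. Around Hoxb they include a tubulin polyglutamylase (Ttll6), an autophagy receptor (Calcoco2), a subunit of the mitochondrial ATP synthase (Atp5g1), an adaptor of T cell receptor signalling (Skap1) and heterochromatin protein HP1 beta (Cbx1). Cohesin extrudes chromatin loops and holds sister chromatids together, and such loops can bring enhancers near promoters.

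Ttll6 (chr11:96133786-96165452, plus strand) was the nearest tested gene on the Hoxb13 side, 28.9 kb from the span, followed by Calcoco2 (chr11:96098916-96111962, minus strand) at 82.4 kb and Atp5g1 at 118.7 kb. On the Hoxb1 side, Skap1 (chr11:96464591-96759622, plus strand) began 96.3 kb away, with Snx11 at 399.3 kb and Cbx1 at 420.9 kb. Inside the span lay the noncoding genes Gm11538 and Gm53 (chr11:96251660-96264484, plus strand) and the hairpins of 2 microRNAs, Mir196a-1 and Mir10a. Before RA, 37 of the 56 genes had a mean of at least 1 FPKM in the authors' deposited values, 18 at least 10, and 7 under 0.1, with a median of 2.83. Apart from Mir3063, a hairpin inside Igf2bp1, the highest were Kpnb1 (importin beta, 115 ± 3.95 FPKM, SD, n = 2), Slc35b1 (an endoplasmic reticulum transporter, 96.5 ± 0.316) and Igf2bp1 (an mRNA-binding protein, 86.2 ± 1.45).

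The bases before the starts of Ttll6 and Fam117a are shown because these were the only 2 of 42 genes with an unadjusted p under 0.05 in all 3 early RA comparisons described below. The share of all genes that met this rule was not computed, so the count serves only to choose them. Each run holds the 250 bases before the annotated start (RefSeq, GRCm38.p6), for Ttll6 chr11:96133536-96133785 and for Fam117a chr11:95336768-95337017, both on the plus strand. Capitals mark AGGTCA, the hexamer half-site of nuclear receptors.
Ttll6: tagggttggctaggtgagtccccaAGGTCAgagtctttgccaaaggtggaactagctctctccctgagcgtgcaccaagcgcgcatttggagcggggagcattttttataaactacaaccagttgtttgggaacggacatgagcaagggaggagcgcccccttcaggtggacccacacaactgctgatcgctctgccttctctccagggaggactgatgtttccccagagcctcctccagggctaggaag
Fam117a: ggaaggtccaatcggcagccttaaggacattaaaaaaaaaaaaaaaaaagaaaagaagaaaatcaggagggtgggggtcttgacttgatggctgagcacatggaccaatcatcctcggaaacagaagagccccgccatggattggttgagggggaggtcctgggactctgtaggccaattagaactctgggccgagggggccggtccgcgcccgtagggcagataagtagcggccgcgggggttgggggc
In Ttll6 the hexamer begins 226 bases before the start, and in Fam117a these letters do not occur on either strand. Of the 56 genes, 32 matched an entry by symbol. AGGTCA on either strand was in 3 of those 32 windows (Kat7, Phb and Ttll6; 9.38%) and in 14.02% of all 32851 windows of this length, so the windows here did not hold it more often. The G/C box GGGCGG was in 59.4% of the 32 and in 32.7% of all.

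The mature 5p microRNAs of both hairpins inside the cluster are shown with their seed (bases 2 to 8) in capitals, since Mir10a was the flanking locus that had no reads before RA and was called at the late times. Their seeds differ.
mmu-miR-10a-5p: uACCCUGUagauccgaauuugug
mmu-miR-196a-5p: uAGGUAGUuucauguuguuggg
The first lies at chr11:96317186-96317208 and the second at chr11:96265187-96265208 (RefSeq, GRCm38.p6, plus strand). Reads over a hairpin locus in these long-RNA libraries come from transcripts that cross it and do not measure the mature microRNA.

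Levels below are CPM, reads scaled to a common library size after normalisation. Total counts ran from 2351751 to 21080452 reads in E14, from 3119249 to 7476856 in the SCC1 line and from 4730326 to 10395904 in the clones. In E14 the 0 h libraries were the deepest (at least 16235331 reads) and the 48 and 72 h libraries the shallowest (at most 3267071), so genes of low level are measured least well at the late times. The E14 table counts exons and the nuclear tables count whole gene spans, so levels are not compared between tables. All 7 embryonic stem cell markers were above 1 CPM at 0 h, and their summed level in E14 went from 2994 to 3054 CPM at 0 h to 416 to 1259 at 72 h. The summed level of 6 extra-embryonic endoderm markers went from 156 to 165 CPM to 758 to 1583. The E14 libraries of 1 early time also differed: 5 fibroblast markers summed to between 62.2 and 852 CPM in the 4 libraries of 4 h. In these bulk samples fewer cells of a type and less RNA per cell cannot be told apart. The part of these differences in the results below was not tested.

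In the first 6 h of RA no flanking gene of wildtype E14 passed the test, and the values of Ttll6, Calcoco2 and Fam117a, chosen here after they were seen, lay above those of 0 h. Other genes lay below: Gpr179 was at 0.49, 0.64, 0.23 and 0 CPM at 6 h against 0.50 and 0.63 (-0.58 on the log2 scale, SE 0.48, adjusted p 0.678). Ttll6 was at 7.43 and 7.33 CPM at 0 h, at 10.4, 12.2, 13.0 and 13.0 at 4 h, and at 13.5, 9.87, 25.3 and 12.5 at 6 h. Every library of 4 and 6 h was thus above both 0 h libraries. The 6 h difference was 1.08 on the log2 scale (SE 0.33), with an adjusted p of 0.0621. Calcoco2 went from 24.1 and 24.7 CPM to 41.5, 31.2, 43.2 and 45.1 at 6 h (log2 difference 0.71, SE 0.33, adjusted p 0.316). Fam117a went from 24.2 and 19.6 CPM to 29.4, 29.1, 40.5 and 30.0 (0.57, SE 0.19, adjusted p 0.0885).

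A gene is counted as changed, or called, below when its adjusted p was under 0.05 over all genes tested. At 2, 4 and 6 h no flanking gene of the 44 tested passed, where 0.471%, 2.42% and 3.88% of all 15062 genes did; 0, 4 and 6 of them had an unadjusted p under 0.05 in edgeR. Of the 10 Hoxb genes, 1, 5 and 7 rose at these times. DESeq2 called 1 flanking gene at 6 h, and 5.07% of all genes.

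Only replicates 3 and 4 have a 0 h library. An alternative added after seeing the data, with those replicates alone, called 5 flanking genes at 4 h and 6 at 6 h, where 7.77% and 11.1% of all genes passed. At 4 h Ttll6 (0.83), Nxph3 (a neurexin ligand, 0.57) and Fam117a (0.53) rose on the log2 scale, and Arhgap23 fell by 0.56 and Ngfr, the p75 neurotrophin receptor, fell by 0.49. At 6 h Ttll6 rose by 1.51 (SE 0.20, adjusted p 4.50e-06), Calcoco2 by 0.85, Fam117a by 0.75 and Kat7, a histone acetyltransferase, by 0.45, while Ngfr fell by 0.73 and Arhgap23 fell by 0.41.

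**Figure D1:**
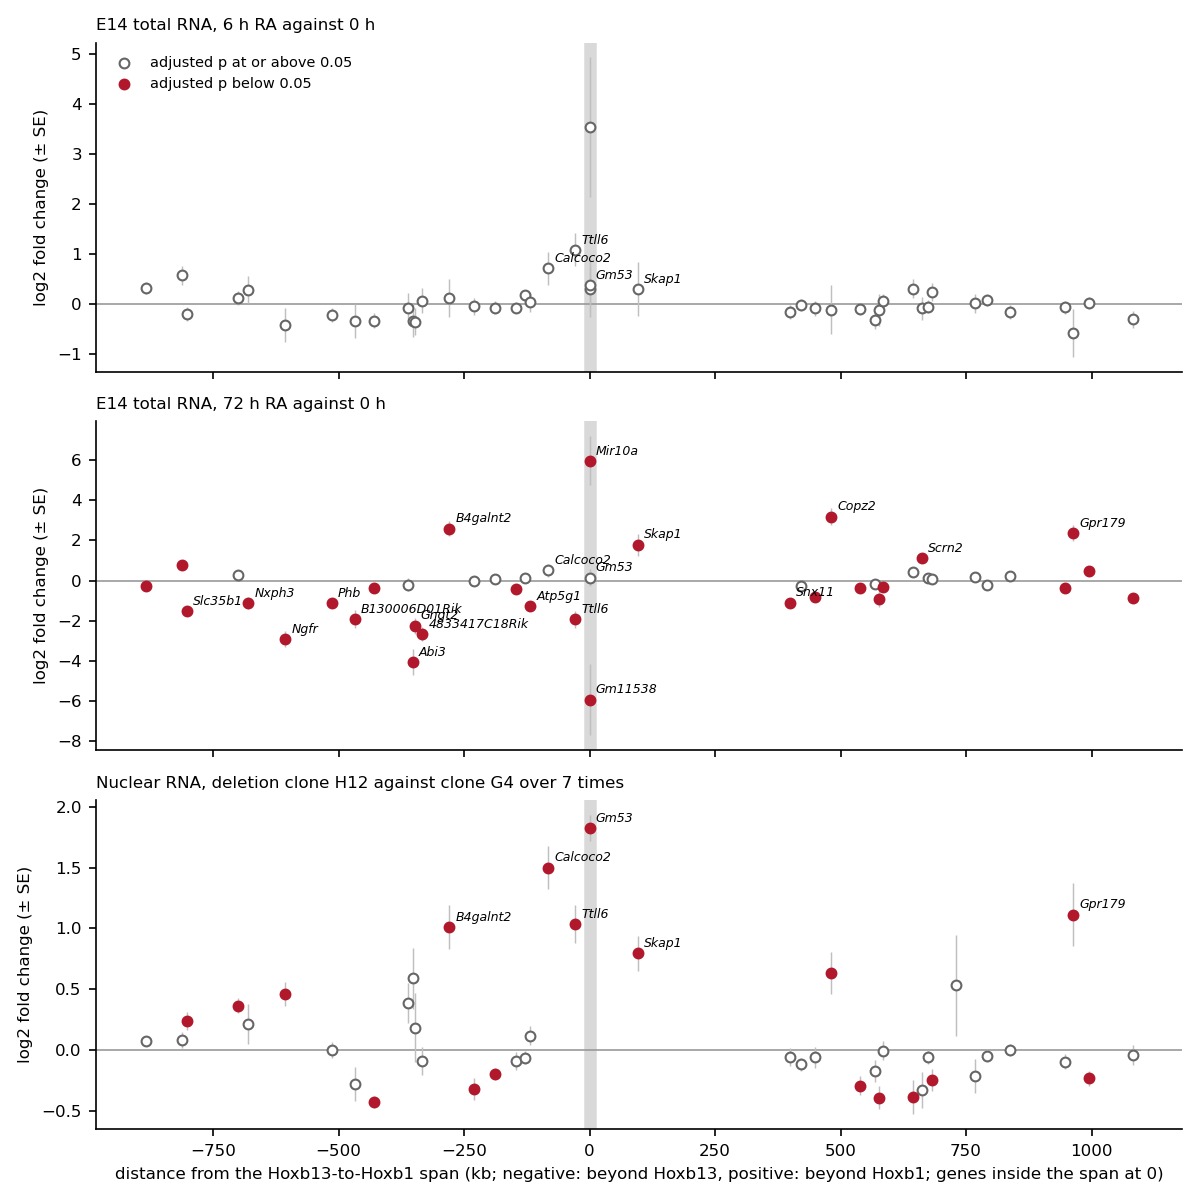
Log2 fold change (points, bars ± SE) of the tested flanking genes against signed distance in kb from the Hoxb span. Panels show E14 at 6 h and at 72 h of RA and clone H12 against G4 over 7 times. Mir10a, at 0 CPM at 0 h in both G4 and H12, is left out of the third panel. At 6 h the highest point outside the span is Ttll6 at 1.08, and at 72 h changes in both directions are spread over the whole window.

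From 24 h on many flanking genes changed, at about the rate of the genome. At 24 h 6 rose and 7 fell of 44 (29.5%, against 27.7% of all genes), at 48 h 6 rose and 17 fell (52.3%, against 55.9% of all genes, 28.5% up and 27.5% down), and at 72 h 8 rose and 21 fell (65.9%, against 59.9%, 30% up and 29.9% down). The medians over the 44 were -0.06, -0.34 and -0.25 on the log2 scale, and over all genes 0.01, 0.00 and -0.01. With the authors' size factors the split was 13 up and 14 down at 72 h, and 6 up and 4 down at 24 h. These factors put the median of all genes at 0.27 at 72 h and called 57.6% of them, and 23.6% at 24 h. So the excess of falls over rises at 24 and 72 h in E14 depends on the scaling. At 48 h these factors put the median of all genes at 0.06 and called 51.6% of them. The flanking split at 48 h under these factors is not given here, and the all-gene split under them was not recorded. Without 1 of the 0 h libraries, the 24 h count was 6 without replicate 3 and 5 without replicate 4.

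The genes that rose most had low levels before RA. Copz2, the zeta subunit of the COPI vesicle coat, was at 0.95 and 0.92 CPM at 0 h and at 9.18, 6.32, 8.74 and 10.2 at 72 h, a rise of 3.18 (SE 0.43, adjusted p 6.63e-07). B4galnt2, a glycosyltransferase that adds N-acetylgalactosamine to cell surface glycans, went from 1.70 and 2.12 CPM to 16.1, 12.3, 10.2 and 7.37 (2.58, SE 0.37, adjusted p 1.58e-06). Gpr179, an orphan receptor known from retinal bipolar cells, went from 0.50 and 0.63 CPM to 4.18, 4.80, 5.04 and 3.56 at 48 h (2.91, SE 0.39, adjusted p 7.75e-07), and the groups of these 3 genes did not overlap. Skap1 was at 0.32 and 0.34 CPM at 0 h and at 2.09, 1.48, 2.21 and 1.98 at 48 h (2.51, SE 0.50, adjusted p 1.39e-04). The summed level of 4 T cell markers went the other way, from 28.2 to 31.6 CPM at 0 h to 7.52 to 14.6 at 48 h. Only 2 of these 4 markers were above 1 CPM at each of these times, and whether any reads came from T cells was not tested.

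Mir10a had 0 reads in both 0 h libraries, which allows up to 0.0819 CPM over the group (3 counts). It had 7, 13 and 13 reads at 24, 48 and 72 h, with means 7.88, 13.5 and 13.4 times that limit. These ratios leave out the error of the few late reads. At 72 h the 4 libraries were at 0.33, 2.53, 0.30 and 1.23 CPM, so the values are of single reads. In the same span Gm11538 went from 1.45 and 0.72 CPM at 0 h to 0 reads in the 4 libraries of 72 h. Its 0 h mean was 4.34 times the limit set by 3 counts at 72 h. Gm53 stayed near its level: 2.71 and 3.71 CPM at 0 h and 3.28, 6.95, 1.81 and 2.05 at 72 h (0.14, SE 0.41, adjusted p 0.780). Mir196a-1 was too low to test. Thus the loci inside the span moved up, down and not detectably.

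**Figure D2:**
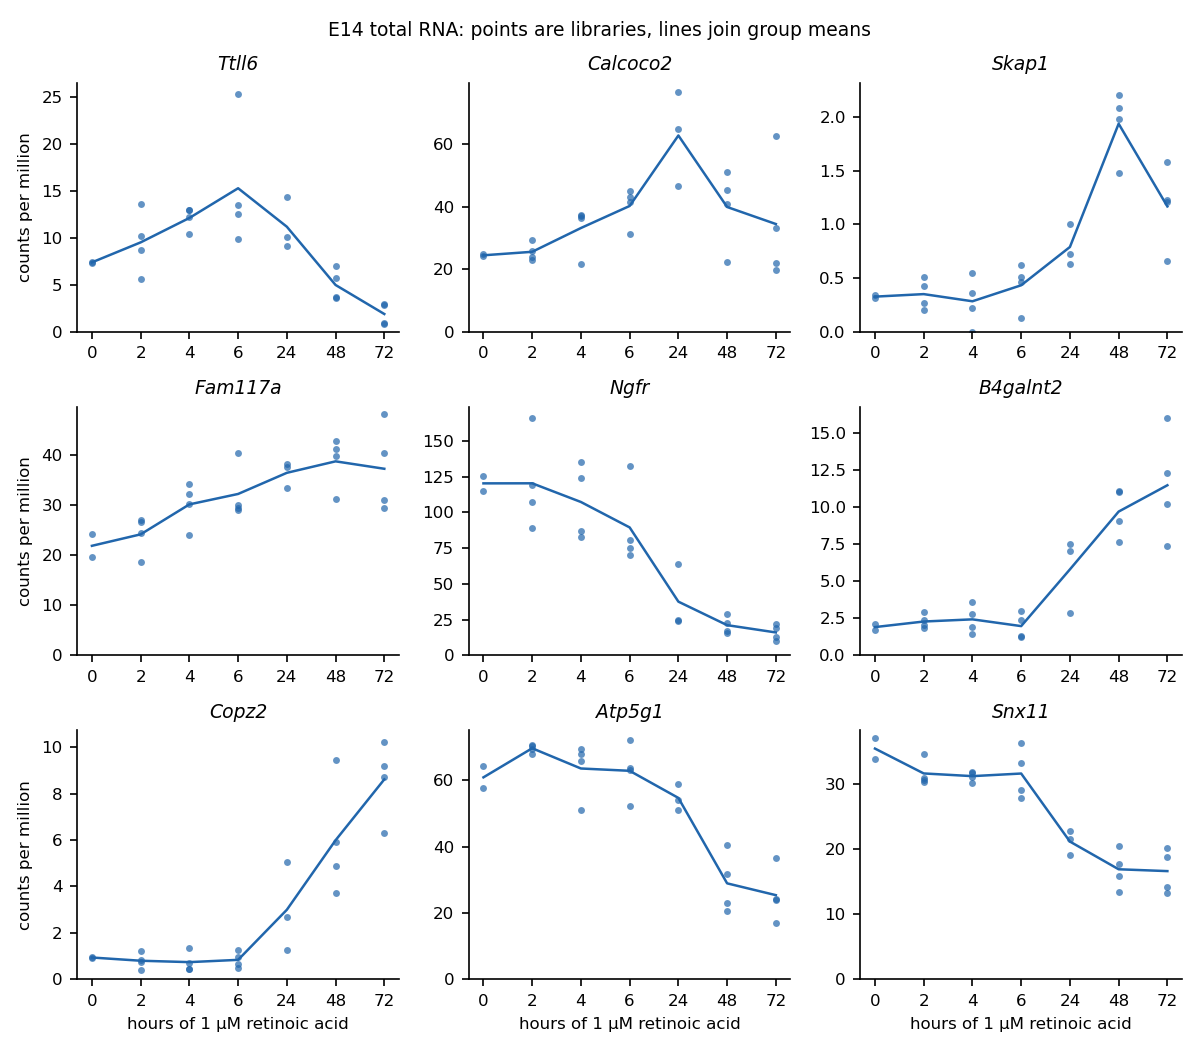
Levels in CPM of 9 flanking genes in each E14 library (points) with the group mean (line) against hours of RA. Ttll6 peaks at 6 h and Calcoco2 at 24 h, Skap1, B4galnt2 and Copz2 rise from 24 h on, and Ngfr falls from 120 CPM to 16.04.

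Ngfr was among the genes that fell at each of 24, 48 and 72 h. It was at 126 and 115 CPM at 0 h, at 64.0, 24.4 and 24.3 at 24 h, and at 19.0, 21.8, 10.2 and 13.1 at 72 h, so that each late library was below both starting ones. The change at 72 h was -2.90 (SE 0.38, adjusted p 2.01e-06). The noncoding gene 4833417C18Rik fell by 2.66 (SE 0.36, adjusted p 5.63e-07), from 7.12 and 6.85 CPM to 0.66, 1.89, 0.60 and 1.23. Abi3, a member of the WAVE actin-regulating complex, went from 2.96 and 3.09 CPM to 0, 0.63, 0 and 0, and Gngt2, a G protein gamma subunit that starts beside it on the other strand, went from 2.84 and 2.85 to 0.33, 0.95, 0.60 and 0.41. The fitted changes were -4.04 (SE 0.66, adjusted p 8.44e-06) and -2.25 (SE 0.41, adjusted p 3.50e-05). Abi3 overlaps Phospho1 and another transcript of Gngt2 on the opposite strand, and whether the counting used strand is not given in the sources used here.

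Several abundant housekeeping genes fell less far. Atp5g1 went from 57.6 and 64.2 CPM at 0 h to 36.4, 24.3, 16.9 and 23.7 at 72 h (-1.27, SE 0.20, adjusted p 6.28e-06). Slc35b1 fell by 1.52 (SE 0.14, adjusted p 8.81e-10), Phb, a scaffold protein of the mitochondrial inner membrane, by 1.11 (SE 0.15, adjusted p 6.18e-07), and Snx11, a sorting nexin, by 1.10 (SE 0.15, adjusted p 8.65e-07). Cbx1 was lower at 48 h (-0.62, SE 0.12, adjusted p 8.43e-05), and at 72 h its difference was -0.26 (SE 0.12, adjusted p 0.0622). Sorted by role at 72 h, the mitochondrial and metabolic genes had 2 rises and 4 falls of 10, the transport genes 1 and 3 of 6, the transcription and chromatin factors 0 and 4 of 7, the protein turnover and translation genes 0 and 2 of 6, and the signalling and cytoskeletal genes 4 and 6 of 11, where 30% of all genes rose and 29.9% fell. With the authors' size factors the same groups, in that order, had 4 and 3, 1 and 2, 2 and 1, 2 and 0, and 4 and 6. So the split changed with the scaling in every group but the last.

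Ttll6 was high early and low late. After its 6 h peak it was at 14.3, 10.1 and 9.16 CPM at 24 h, at 6.96, 3.69, 5.68 and 3.56 at 48 h, and at 2.95, 2.84, 0.90 and 0.82 at 72 h. The 72 h libraries were all below the 0 h ones (-1.94, SE 0.44, adjusted p 4.63e-04). Calcoco2, its neighbour, was at 65.0, 46.6 and 76.7 CPM at 24 h (1.36, SE 0.36, adjusted p 0.00757), and without 0 h replicate 3 or replicate 4 this call was lost (adjusted p up to 0.0655). At 72 h Calcoco2 spread from 19.9 to 62.6 CPM and did not pass (0.50, SE 0.34, adjusted p 0.214). Fam117a rose at 24, 48 and 72 h (0.74, 0.82 and 0.77).

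Late changes were found both near the cluster and far from it. At 72 h 3 rose and 10 fell of the 19 tested within 500 kb of the span, with a median of -0.37, and 4 rose and 10 fell of the 22 tested farther away, with a median of -0.20; both shares are near the 59.9% of all genes called. On the Hoxb13 side 2 rose and 13 fell of 21, with a median of -0.44. On the Hoxb1 side 5 rose and 7 fell of 20, with a median of -0.04; the difference between the sides was not tested. With the authors' size factors these splits were 4 and 8 within 500 kb, 8 and 5 farther away, 4 and 10 on the Hoxb13 side and 8 and 3 on the Hoxb1 side. In all, 33 of the 44 (75%) were called at least once from 2 to 72 h, and so were 71.0% of all genes. All 10 Hoxb genes rose at each of 24, 48 and 72 h, with a median of 7.09 at 72 h.

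Clone G4, whose libraries are nuclear and share none with E14, gave a like picture of late RA. At 74 h 8 of 44 rose and 17 fell (56.8%, against 56.6% of all 15886 genes, 28% up and 28.7% down), with a median of -0.50, against -0.03 over all. Of 43 genes tested in both, 7 rose in both E14 at 72 h and G4 at 74 h (Fam117a, B4galnt2, Mir10a, Skap1, Copz2, Scrn2 and Socs7), 15 fell in both, and 0 went in opposite directions; 6 were called in E14 alone and 3 in G4 alone. Of the 14726 genes tested in both, 21.5% rose in both, 21.0% fell in both and 0.964% went in opposite directions. Copz2 in G4 went from 0.39 and 0.51 CPM to 5.06 and 6.14 (3.58, SE 0.44, adjusted p 2.87e-08), and Ngfr from 28.2 and 28.0 to 6.08 and 3.43 (-2.53, SE 0.27, adjusted p 1.50e-09). Mir10a went from 0 to 38 reads, with a 74 h mean 12.8 times the limit set by 3 counts at 0 h. Gpr179 returned to 0.56 and 0.29 CPM at 74 h after 1.92 and 2.99 at 24 h.

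The early rise of Ttll6 and Fam117a was called in G4. Taking 2, 4 and 6 h together against 0 h, these 2 of 44 rose and 0 fell (4.55%, against 6.35% of all genes). Ttll6 went from 4.02 and 5.91 CPM at 0 h to 13.5 and 13.2 at 4 h and 11.3 and 12.9 at 6 h, with no overlap at these times (mean of the 3 times 0.99, SE 0.30, adjusted p 0.0428). Fam117a went from 59.7 and 79.6 CPM to 110 and 130 at 4 h (mean of the 3 times 0.62, SE 0.15, adjusted p 0.00824). Both calls were lost without either G4 replicate 1 or replicate 2, where Ttll6 was at 0.75 and 1.28, and 1 call was left without H12 replicate 1 or replicate 2, which share the estimate of spread. Ttll6 then reached 0.68 and 0.14 CPM at 74 h (-3.45, SE 0.57, adjusted p 6.00e-06).

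Skap1 had its peak at 24 h in the nuclear RNA of all 3 clones. It went from 2.33 and 2.18 CPM at 0 h to 21.2 and 34.3 at 24 h in G4, from 3.81 and 2.83 to 24.2 and 22.1 in E3, and from 5.79 and 5.25 to 54.8 and 46.9 in H12. By 74 h it was at 6.98 and 8.43, 5.63 and 10.3, and 11.5 and 4.86 CPM. In E14 total RNA the highest mean was at 48 h. Skap1 spans 295.032 kb, and reads over its introns count in the nuclear tables.

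In the SCC1 line, 4 h of RA raised the neighbours on either side of the cluster. Of 43 tested, 2 rose and 1 fell (6.98%, against 2.54% of all 13997 genes): Ttll6 and Skap1 rose and Arhgap23 fell. Ttll6 was at 3.22, 4.15 and 2.72 CPM in untreated cells and at 8.51, 10.95 and 6.28 with RA, without overlap (1.31, SE 0.27, adjusted p 0.00976). Skap1 was at 3.49, 2.99 and 2.95 CPM and at 8.15, 4.43 and 7.54 with RA, again without overlap (1.10, SE 0.27, adjusted p 0.0326). Arhgap23 went from 132, 113 and 108 CPM to 80.1, 91.3 and 75.2 (-0.52, SE 0.13, adjusted p 0.0410). Fam117a went from 59.2, 66.9 and 46.5 CPM to 78.6, 108 and 79.3 and did not pass (0.61, SE 0.18, adjusted p 0.0889). These calls are fragile. None of the 3 passed with the authors' size factors, which put the median of all genes at 0.18 and called 0.507% of them. None passed without untreated replicate 1 or replicate 3, where the count was 0. DESeq2 called 5, and 3.04% of all genes. The count was 1 without RA replicate 1, RA replicate 3 or untreated replicate 2. Ttll6 kept an estimate of 1.12 without RA replicate 2 (adjusted p 0.0605). Of the 4 Hoxb genes that could be tested, 3 rose.

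With auxin the neighbours of the cluster were not called. Auxin alone called 0 of 43, against 0.236% of all genes, with 6 at an unadjusted p under 0.05 in edgeR. RA after auxin called 0 against auxin alone (2.64% of all genes), with 8 at an unadjusted p under 0.05 in edgeR. DESeq2 called 1 there, and 3.44% of all genes. Auxin plus RA against RA called 0 (0.364%; 3 unadjusted), and the interaction, which asks whether auxin changes the response to RA, called 0 (0%; 5 unadjusted). Ttll6 was at 5.11, 5.92 and 6.52 CPM with auxin, above the 3 untreated libraries, and at 9.90, 8.16 and 6.56 with auxin plus RA. Its difference for RA after auxin was 0.49 (SE 0.25, adjusted p 0.362), and the interaction was -0.81 (SE 0.37, adjusted p 0.692). Skap1 was at 5.42, 4.16 and 5.93 CPM with auxin and at 4.73, 5.29 and 5.51 with auxin plus RA, a difference of 0.02 (SE 0.26, adjusted p 0.980), with an interaction of -1.08 (SE 0.38, adjusted p 0.692). So Skap1 rose without auxin and not detectably with it, but the test of that difference did not pass. The start also differed: all Skap1 libraries with auxin alone lay above the untreated ones (0.67, SE 0.28, adjusted p 0.343 in edgeR). Auxin plus RA against RA differed by -0.41 for Skap1 (SE 0.25, adjusted p 0.822 in edgeR).

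**Figure D3:**
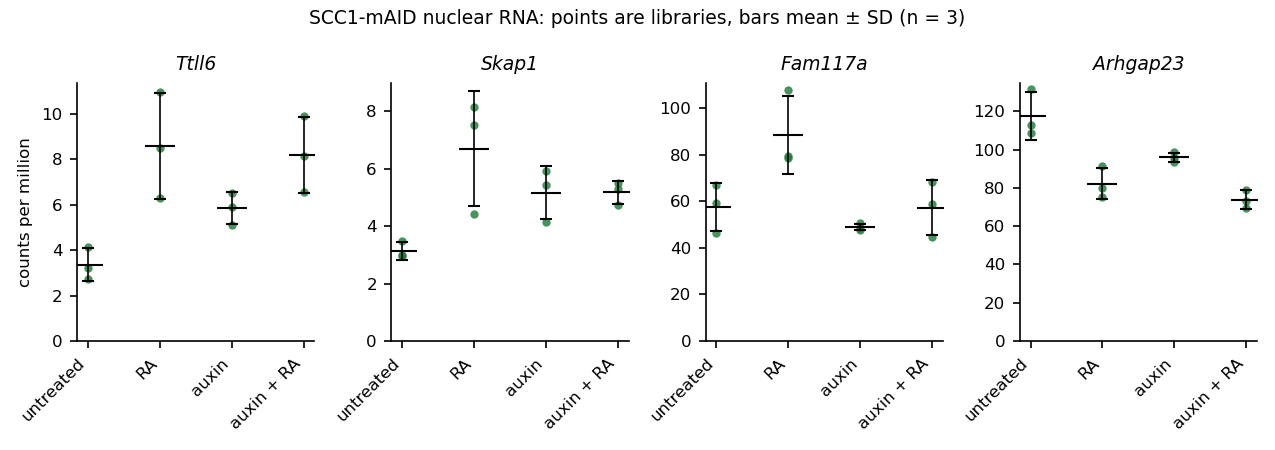
Levels in CPM of Ttll6, Skap1, Fam117a and Arhgap23 in the 4 groups of the SCC1 line (points, libraries; bars, mean ± SD, n = 3). The RA libraries of Ttll6 and Skap1 lie above all untreated ones, and the auxin groups lie between or beside them.

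In the clones without the enhancer Ttll6 and Calcoco2, the nearest tested genes at the Hoxb13 end, were at higher levels than in G4, while the flanking genes as a whole were called no more often than all genes. Over 7 times, 5 of 44 flanking genes were higher in E3 than in G4 and 0 lower (11.4%, against 12.8% of all genes, 5.98% higher and 6.83% lower), and in H12 10 were higher and 8 lower (40.9%, against 44.5%, 21.4% higher and 23% lower). The mean of both deletion clones gave 7 higher and 6 lower (29.5%, against 30.6%). Calcoco2, Ttll6, Gm53 and Ngfr were higher in each clone (4 of 44, 9.09%, against 2.61% of all genes); both comparisons use the same G4 libraries. E3 and H12 also differed from each other in 17 of 44 (7 higher in E3 and 10 lower; 38.6%, against 40.8%). The E3 count was 3 without G4 replicate 1 or E3 replicate 2, and E3 against H12 gave 11 without E3 replicate 1. With so many genes of the whole genome called, a difference between single clones cannot be told apart from an effect of the deletion.

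Calcoco2 had the largest difference called in E3. Its means over the 7 times were 7.61 CPM in G4, 16.9 in E3 and 21.4 in H12, and at each of the 7 times both deletion clones had a higher mean than G4. At 0 h the libraries were at 4.15 and 6.30 CPM in G4, 7.76 and 12.04 in E3 and 18.0 and 17.4 in H12. At 6 h they were at 9.98 and 10.8, 22.6 and 21.2, and 28.6 and 31.3. Both E3 libraries were above both G4 libraries at 6 of 7 times and both H12 libraries at 7. The differences were 1.13 for E3 (SE 0.18, adjusted p 5.79e-05) and 1.5 for H12 (SE 0.18, adjusted p 7.75e-08), and without E3 replicate 2 the first was 0.62 (adjusted p 0.0260).

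Ttll6 followed the same order. Its means over the 7 times were 7.33 CPM in G4, 10.2 in E3 and 12.7 in H12, higher at all 7 times in both clones. At 0 h the libraries were at 4.02 and 5.91 in G4, 5.04 and 12.5 in E3 and 8.62 and 10.2 in H12, and at 6 h at 11.3 and 12.9, 16.8 and 18.6, and 20.6 and 25.8. E3 overlapped G4 at 0 h and did not at 6 h. The differences were 0.76 for E3 (SE 0.16, adjusted p 0.00101) and 1.04 for H12 (SE 0.15, adjusted p 1.62e-06). Without E3 replicate 2, the E3 difference was 0.43 (adjusted p 0.107). Atp5g1, the next gene outward from Calcoco2, differed by 0.07 in E3 and 0.12 in H12 (SE 0.08 in each) and was called in neither.

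Gm53, the noncoding gene inside the span, set H12 apart from the others. Its means over the 7 times were 7.26 CPM in G4, 9.15 in E3 and 25.5 in H12. At 0 h it was at 5.83 and 9.25 CPM in G4, 7.49 and 10.6 in E3 and 21.1 and 27.3 in H12, and at 74 h at 5.29 and 5.57, 9.07 and 10.8, and 25.3 and 26.2. The H12 libraries were above G4 at 7 of 7 times (1.83, SE 0.11, adjusted p 5.41e-15), and E3 was lower than H12 (-1.46, SE 0.10, adjusted p 5.34e-13). The E3 difference of 0.37 (SE 0.11, adjusted p 0.0307) was 0.16 without G4 replicate 1 (adjusted p 0.535) and 0.18 without E3 replicate 2 (adjusted p 0.474), so it rested on single replicates.

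Ngfr, on the far side of Calcoco2, was also higher in both: 16.6 CPM in G4 over the 7 times, 23.5 in E3 and 25.4 in H12 (0.61, SE 0.10, adjusted p 3.89e-05 and 0.46, SE 0.10, adjusted p 3.60e-04). Skap1, across the cluster, was higher in H12 (0.79, SE 0.14, adjusted p 3.82e-05) and not detectably in E3 (-0.02, SE 0.16, adjusted p 0.971); the 2 clones differed (-0.81, SE 0.14, adjusted p 2.69e-05). Mir10a, inside the span, went the other way in its means over the 7 times: 0.74 CPM in G4, 0.42 in E3 and 0.40 in H12. Its mean was higher than in G4 at 2 of 7 times in E3 and at 1 in H12. No fold change is given for it, since it was at 0 CPM at 0 h in all 3 clones. Of the 9 Hoxb genes tested, 0 were higher and 1 lower in E3, and 1 was higher in H12. No Hoxb gene was called in the same direction in both.

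**Figure D4:**
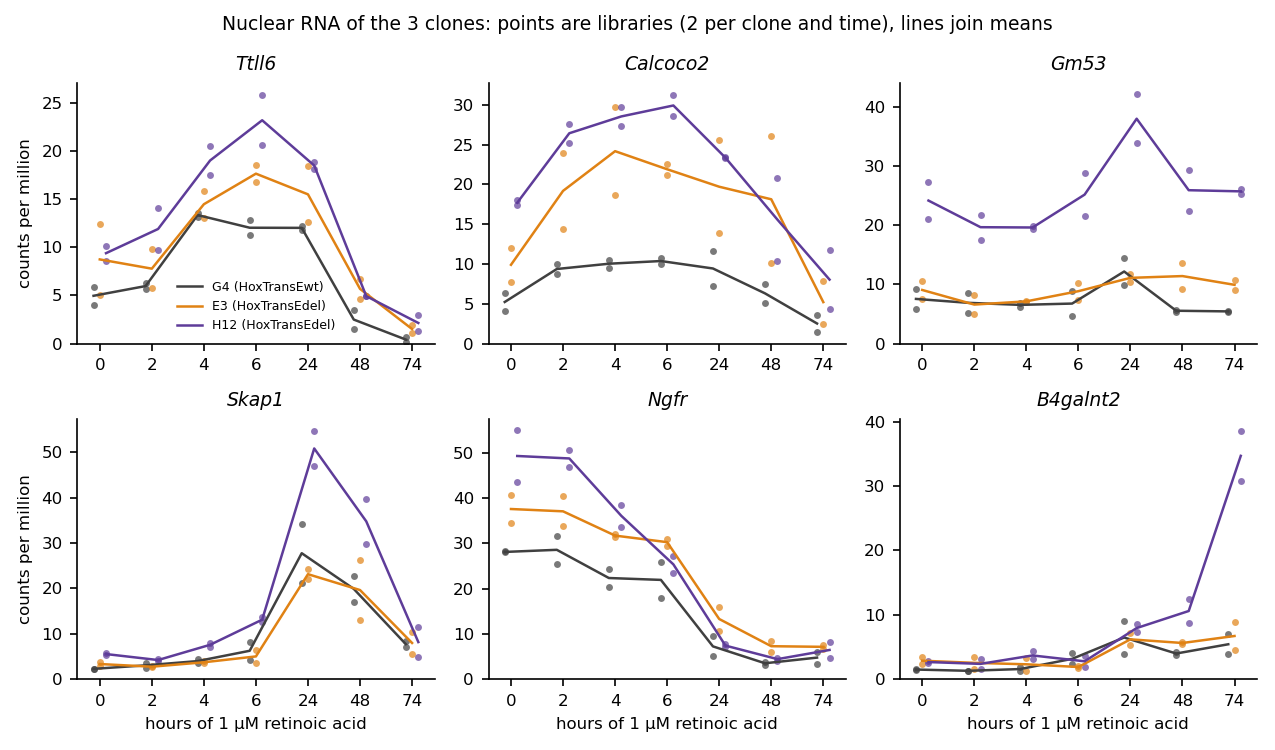
Levels in CPM of Ttll6, Calcoco2, Gm53, Skap1, Ngfr and B4galnt2 against hours of RA in clones G4, E3 and H12 (points, libraries; lines, means of 2). Calcoco2 and Ttll6 lie higher in both deletion clones at all 7 times, Gm53 is apart in H12, and B4galnt2 of H12 reaches 34.7 CPM at 74 h.

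B4galnt2 was higher in H12 over the 7 times (1.01, SE 0.18, adjusted p 2.72e-05), with a higher mean than G4 at 6 of 7 times. At 0 h it was at 2.83 and 2.46 CPM in H12 and 1.43 and 1.54 in G4. At 74 h it was at 30.8 and 38.6 CPM in H12, 3.83 and 7.0 in G4 and 4.53 and 8.86 in E3. The summed level of the endoderm markers at 74 h was also highest in H12: 7425 to 7876 CPM, 736 to 1040 in G4 and 742 to 935 in E3. At 0 h it was lower in H12 (260 to 272) than in G4 (303 to 318). In G4 B4galnt2 had its peak at 24 h (6.46 CPM), where the endoderm sum was 200 to 202. The 5 fibroblast markers at 74 h summed to 945 to 946 CPM in H12, 125 to 242 in G4 and 445 to 474 in E3. The part of endoderm or fibroblast cells in the B4galnt2 level was not tested. Gpr179 (1.11) and Copz2 (0.63) were higher in H12 too, and E3 was lower than H12 for both (-1.21 and -1.0).

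The response to RA at 74 h differed between the deletion clones and G4 for 2 of 44 flanking genes (1 up, 1 down; 4.55%, against 7.06% of all genes). Fam117a went from 59.7 and 79.6 to 99.6 and 117 CPM in G4, but from 63.3 and 87.7 to 74.6 and 67.7 in E3 and from 83.7 and 81.9 to 64.4 and 67.4 in H12 (interaction -0.84, SE 0.22, adjusted p 0.0154). Ube2z, a ubiquitin-conjugating enzyme, went from 78.4 and 69.0 to 69.8 and 57.7 CPM in G4, but from 69.8 and 56.6 to 74.3 and 84.5 in E3 and from 64.8 and 64.2 to 95.2 and 91.1 in H12 (0.64, SE 0.17, adjusted p 0.0211). Neither call was left without G4 replicate 1, G4 replicate 2 or E3 replicate 2, while 1 was left without H12 replicate 2 and 3 genes were called without E3 replicate 1. The Ttll6 interaction was 1.14 (SE 0.72, adjusted p 0.355) and that of Calcoco2 -0.01 (SE 0.90). So for both no change of the clone difference from 0 h to 74 h was detected. With SEs this wide a sizeable change could be missed, and the interaction at earlier times was not tested.

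**Figure D5:**
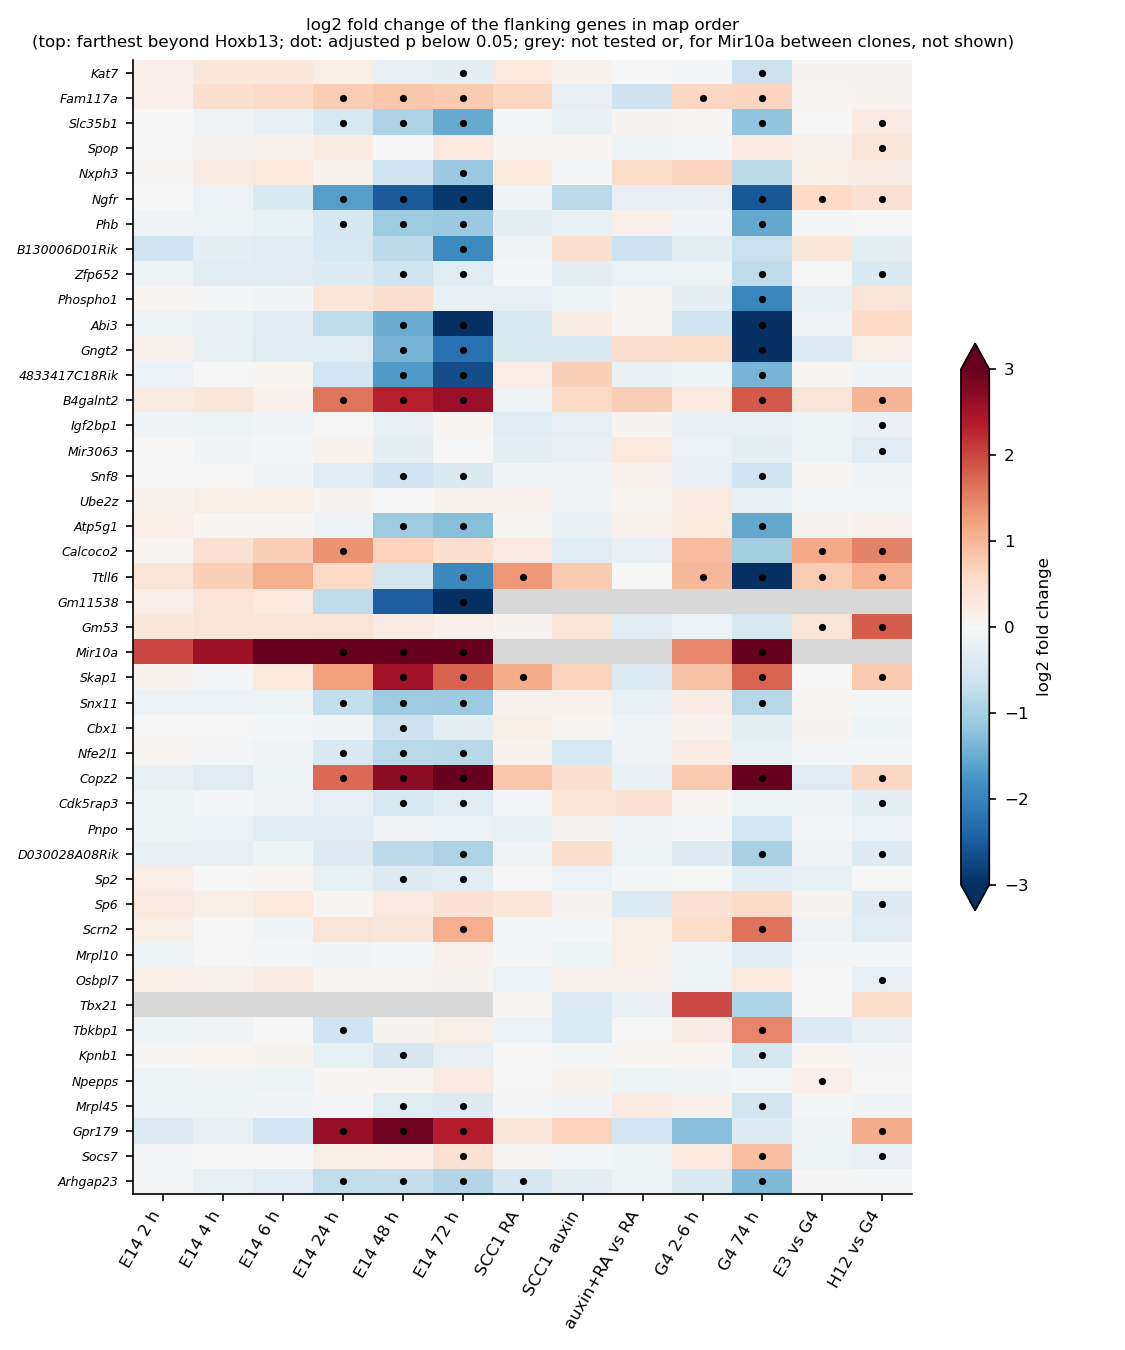
Log2 fold change of the tested flanking genes (rows, in map order) in 13 comparisons (columns); dots mark adjusted p under 0.05, and grey cells were not tested or are Mir10a between clones. The late RA columns are mostly blue with a few red rows (B4galnt2, Skap1, Copz2). In the columns of E3 and H12 against G4, Calcoco2 and Ttll6 are red in both, and Gm53 is red in H12 and pale in E3.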

How the data were processed

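The authors deposited 1 table per set of libraries. Tools and builds named in the submitters' processing notes are STAR, Bowtie2, SAMtools and DESeq2, and mm10 and dm6 (Drosophila cells were added for calibration, per the labels' protocols). The deposited signal is counts divided by 1 size factor per library, and multiplying back gave whole reads (tolerance 0.1 read) for 100% of values. The E14 table also holds the authors' deposited FPKM values, used here for levels between genes at 0 h. The clone and SCC1 tables count whole gene spans.

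Reads were tested with edgeR 4.0.16 (robust quasi-likelihood, TMM, filterByExpr, Benjamini-Hochberg adjustment) in R 4.3.3, each set by itself with all its groups, after a check on simulated data. This tested 44 flanking genes in E14, 43 in SCC1 and 44 in the clones. Contrasts over 7 times average matched differences. limma 3.58.1 (log2 of signal plus 1), DESeq2 1.42.0, the authors' size factors, no filter, only the groups compared, a replicate block and leaving out each replicate were alternatives. Genes named were those changed at least 2-fold (at most 10 per comparison), the 3 tested ones nearest on each side, those inside the span, and those called in the same direction in both deletion clones; Fam117a, Ube2z, Kat7, Arhgap23, Nxph3, Socs7, Slc35b1, Phb, Kpnb1, Igf2bp1 and the genes of each list were added after their values were seen. Members and lists were chosen with earlier results of these data known. Same-numbered replicates were alike only in part. The median correlation of their deviations was 0.092 in E14, 0.164 in SCC1 and 0.113 in the clones. It was over 0.1 in 31 of 67 pairs in E14, 11 of 18 in SCC1 and 218 of 420 in the clones. The main tests did not use the replicate number.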

Additional observations from a re-analysis of the deposited data

Results flagged for a closer look

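Within groups of 4 E14 libraries, 5 of the 94 gene groups looked at held a library far from the other 3. A group with reads in only 1 library is always flagged, as for Abi3 at 72 h and Mir10a at 4 h. The number of flags is therefore not set against a chance rate. Calcoco2 was at 21.7 CPM in replicate 2 of 4 h, with the others between 36.4 and 37.4. Snx11 was at 34.6 CPM in replicate 4 of 2 h, with the others between 30.3 and 30.9. Mir10a was at 2.21 CPM in replicate 3 of 48 h, with the others between 0.696 and 0.791, and at 0.335 in replicate 4 of 4 h, with the others at 0. Abi3 was at 0.632 CPM in replicate 2 of 72 h, with the others at 0.

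The response to RA at 74 h differed between the deletion clones and G4 by an interaction term in edgeR for Fam117a (-0.84 on the log2 scale, adjusted p 0.0154) and Ube2z (0.64, adjusted p 0.0211).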

How the results depend on the processing

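Of 150 called member values, 84 kept their call under all alternatives run, 66 lost it under at least 1, and 1 reversed. Kat7 at 72 h (-0.27) was 0.0162 with the authors' size factors and 0.0102 with limma, which uses the same factors. The median of all genes at 72 h was 0.27 in the first setting and 0.24 in the second. The cause of the Kat7 reversal was not tested. Counts of called members moved as follows. The share of all genes is in brackets. E14 at 4 h gave 5 with replicates 3 and 4 only (7.77%). At 6 h it gave 6 with those replicates (11.1%), 1 with DESeq2 (5.07%) and 3 with a replicate block (5.71%). RA in the SCC1 line gave 5 with DESeq2 (3.04%), 0 with the authors' size factors (0.507%) and 0 with limma (0.514%). Auxin plus RA against auxin gave 1 with DESeq2 (3.44%), 1 with no filter (2.38%) and 2 with the block (3.28%). G4 at 2 to 6 h gave 1 with limma (5.80%), and the interaction at 74 h gave 6 with the block (11.2%). The cause was not tested.

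The replicate number as a block was borne out only in part by the correlations. It gave these counts of called members, with the share of all genes in brackets. From 2 to 72 h in E14 they were 0 (0.803%), 0 (3.66%), 3 (5.71%), 13 (30.9%), 22 (57.1%) and 29 (61.5%). In the SCC1 line they were 4 for RA (3.23%), 0 for auxin (0.707%) and 2 for RA after auxin (3.28%). Auxin plus RA against RA gave 0 (0.536%) and the interaction 0 (0%). In the clones they were 14 for the deletion (33.2%), 7 for E3 (15.9%), 20 for H12 (46.9%) and 18 for E3 against H12 (43.4%). G4 gave 2 at 2 to 6 h (8.15%) and 27 at 74 h (58.7%), and the interaction at 74 h gave 6 (11.2%).

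Leaving out 1 replicate at a time gave 0 to 0 called at 2 and 4 h, 0 to 1 at 6 h, 5 to 15 at 24 h, 21 to 25 at 48 h and 23 to 29 at 72 h in E14. In the SCC1 line it gave 0 to 4 for RA, 0 to 1 for auxin, 0 to 2 for RA after auxin, and 0 to 0 for auxin plus RA against RA and for the interaction. In the clones it gave 9 to 15 for the deletion, 3 to 6 for E3, 12 to 20 for H12, 11 to 17 for E3 against H12, 0 to 2 for G4 at 2 to 6 h, 18 to 26 at 74 h and 0 to 3 for the interaction. The share of all genes called in these fits was not recorded, so these counts have no rate beside them. A lone library left in a group is assumed to vary like the other groups. The interaction could not be fitted on only the groups compared. Depth limits the genes of low level most at 48 and 72 h in E14.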
